A study of Mus musculus with 30 samples.

Results

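The 9 genes described here encode the inducible parts of the machinery that makes and loads peptides for major histocompatibility complex (MHC) class I. They were chosen by gene symbol: Psmb8, Psmb9 and Psmb10 for the catalytic subunits of the immunoproteasome, Psme1 and Psme2 for its activator PA28, Tap1 and Tap2 for the peptide transporter, and Tapbp and Tapbpl for the peptide editors tapasin and its homolog TAPBPR. All 9 had a row among the 39676 genes counted, and all 9 passed the filter of a mean of 10 counts per tumor that left 15926 genes to test. Messenger RNA of whole tumors was sequenced 8 days after engraftment, with 10 tumors in each of the groups B16-GFP, B16-IFNA4 and B16-IFNA9.

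Every tumor grew from B16, a pigmented mouse melanoma line, under the skin of female C57BL/6 mice. The cells of all groups carried herpes simplex virus glycoprotein B with a cyan fluorescent protein, firefly luciferase with puromycin resistance, and a green fluorescent protein (GFP). B16-IFNA4 cells, called B16.IFNα4.gB.luc in the study, also expressed the type I interferon IFNα4 from the retroviral vector that brought GFP. B16-IFNA9 cells (B16.IFNα9.gB.luc) expressed IFNα9 in the same way, and B16-GFP cells (B16.GFP.gB.luc) held the vector without an interferon. The viral long terminal repeat drove the interferon in the melanoma cells, with GFP on the same transcript. Each type was 1 sorted and selected cell line, so its interferon cannot be told apart from other properties of that line. Ifna4 had 81 to 188 counts in the B16-IFNA4 tumors and 0 counts in the other 20 tumors, and Ifna9 had 55 to 148 counts in the B16-IFNA9 tumors and 0 elsewhere.

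The proteasome cuts proteins into peptides. In cells that respond to interferon, Psmb8, Psmb9 and Psmb10 take the places of the constitutive catalytic subunits Psmb5, Psmb6 and Psmb7, which shifts the cut towards peptide ends that class I molecules hold well. PA28, a ring of Psme1 and Psme2, opens the particle. The Tap1 and Tap2 heterodimer pumps the peptides into the endoplasmic reticulum, where tapasin holds an empty class I molecule next to the transporter and exchanges its peptides, and TAPBPR does so away from the transporter. Class I heavy chains, B2m and these genes are classical interferon targets, with Irf1 and the coactivator Nlrc5 among the factors known to act on them.

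Of the 9 genes, 5 lie on chromosome 17 in the MHC region. In the GRCm38 annotation GENCODE M21, Psmb9 (ENSMUSG00000096727.2) spans chr17:34181987-34187764 on the minus strand and Tap1 (ENSMUSG00000037321.17) spans chr17:34187553-34197225 on the plus strand, so that their spans share 212 bases. Psmb8 (ENSMUSG00000024338.14) follows at chr17:34197721-34201454 and Tap2 (ENSMUSG00000024339.12) at chr17:34203527-34216321, both on the plus strand, and Tapbp (ENSMUSG00000024308.14) lies at chr17:33915899-33929292 on the plus strand. Psme1 (ENSMUSG00000022216.16, chr14:55578123-55581529, plus) and Psme2 (ENSMUSG00000079197.10, chr14:55587441-55591113, minus) are neighbors on chromosome 14. Psmb10 (ENSMUSG00000031897.9, chr8:105935735-105938444, minus) and Tapbpl (ENSMUSG00000038213.7, chr6:125223933-125231860, minus) each lie apart from the rest of the 9. Both are overlapped on the other strand by a gene that is not one of the 9. The positions are those of the annotation, not of the authors' alignment.

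Promoter sequences from RefSeq on GRCm38.p6 were found for 7 of the 9 genes, and Tap2 and Tapbpl were not among them. A pair of sequences is shown, because Psmb9 and Tap1 start back to back, and because the Psmb8 promoter held 1 of the motifs searched. The first is the interval of 225 bases between the RefSeq starts of Psmb9 and Tap1, chr17:34187331-34187555, written on the plus strand. The second is the 250 bases before the start of Psmb8, chr17:34197945-34198194, plus strand, with the motif in capitals. GENCODE places some starts of Psmb9 within the interval and its outermost one beyond it, inside Tap1, and it starts transcripts of Psmb8 both before and after the stretch shown.
Psmb9-Tap1 interval: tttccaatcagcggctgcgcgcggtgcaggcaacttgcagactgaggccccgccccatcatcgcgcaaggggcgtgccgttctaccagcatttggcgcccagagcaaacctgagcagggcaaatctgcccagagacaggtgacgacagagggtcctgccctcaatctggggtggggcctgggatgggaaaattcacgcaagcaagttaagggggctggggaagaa
Psmb8: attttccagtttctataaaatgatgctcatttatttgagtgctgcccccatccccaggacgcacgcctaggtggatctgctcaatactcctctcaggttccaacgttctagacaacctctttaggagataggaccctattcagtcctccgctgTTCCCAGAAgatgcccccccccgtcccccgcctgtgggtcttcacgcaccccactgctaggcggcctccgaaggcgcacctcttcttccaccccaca
Windows of 250 bases before and 50 bases after each start were searched on both strands for the core of the interferon-stimulated response element, GAAANNGAAA, and for the gamma-activated site, TTCNNNGAA. The first motif was in 1 of the 8 windows of these genes, that of Psme1, where it began 9 bases after the start, and in 3.44% of all 32851 windows of the table. The second was in 1 of the 8 windows, at 97 bases before the start of Psmb8, and in 8.30% of all windows. The windows of Psmb9 and Tap1 overlap each other, as do both windows of Psme2, and a match describes only these letters.

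The total count per tumor was 14598517 to 19788383, and the 9 genes had 49 to 7075 counts per tumor. Levels are in CPM, counts scaled to the size of each library after TMM normalization, a correction for library makeup. B16-GFP tumor 7 stood apart, with the lowest total and the lowest scaling factor (0.768, against 0.856 to 1.10 in the other 29 tumors). It also had the lowest level of Ptprc, the gene of the leukocyte antigen CD45 (19.5 CPM), so values without it are given below. In whole tumors, fewer cells of a type and less RNA per cell cannot be told apart.

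Psmb9, Psmb8 and Psmb10 rose in both interferon types. Psmb9 was 16.7 ± 5.82 CPM (SD, n = 10) in B16-GFP tumors, with a lowest value of 7.49, a median of 16.9 and a highest of 24.6 CPM. It was 60.9, 72.8 and 97.0 CPM at these 3 points in B16-IFNA4 tumors and 43.1, 69.1 and 129.99 CPM in B16-IFNA9 tumors. All 20 interferon tumors thus lay above all 10 controls, and the lowest interferon tumor was well above the highest control. The log2 fold change of Psmb9 over B16-GFP was 2.17 ± 0.19 (SE) in B16-IFNA4 and 2.19 ± 0.19 in B16-IFNA9 tumors, with adjusted p = 7.0e-11 and 1.4e-10 (edgeR's quasi-likelihood test, Benjamini-Hochberg adjustment over all genes tested).

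Psmb8 ran from 15.8 over a median of 35.3 to 56.4 CPM in B16-GFP, from 87.1 over 119 to 171 CPM in B16-IFNA4 and from 45.7 over 92.4 to 153 CPM in B16-IFNA9 tumors. Its B16-IFNA4 tumors were all above the controls, whereas 1 B16-IFNA9 tumor, number 10, fell within the control range. The log2 fold change was 1.84 ± 0.19 (adjusted p = 2.3e-09 in edgeR's test) in B16-IFNA4 and 1.45 ± 0.19 (adjusted p = 3.3e-07) in B16-IFNA9 tumors. Psmb10, whose product replaces Psmb7, had the smallest log2 fold changes of the 9 genes, 0.95 ± 0.21 (adjusted p = 0.00027) and 0.90 ± 0.21 (adjusted p = 0.00061). That rank was lost with the Ptprc covariate described below, where Psmb10 was at 1.04 ± 0.48 and 0.99 ± 0.42 and Psmb8 at 0.92 ± 0.41 and 0.70 ± 0.35. It ran from 9.60 over 26.1 to 37.2 CPM in B16-GFP, from 29.2 over 44.4 to 68.1 CPM in B16-IFNA4 and from 24.3 over 42.0 to 92.8 CPM in B16-IFNA9 tumors. Its groups overlapped in both comparisons, with 9 of 10 B16-IFNA4 and 7 of 10 B16-IFNA9 tumors above every control.

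**Figure D1:**
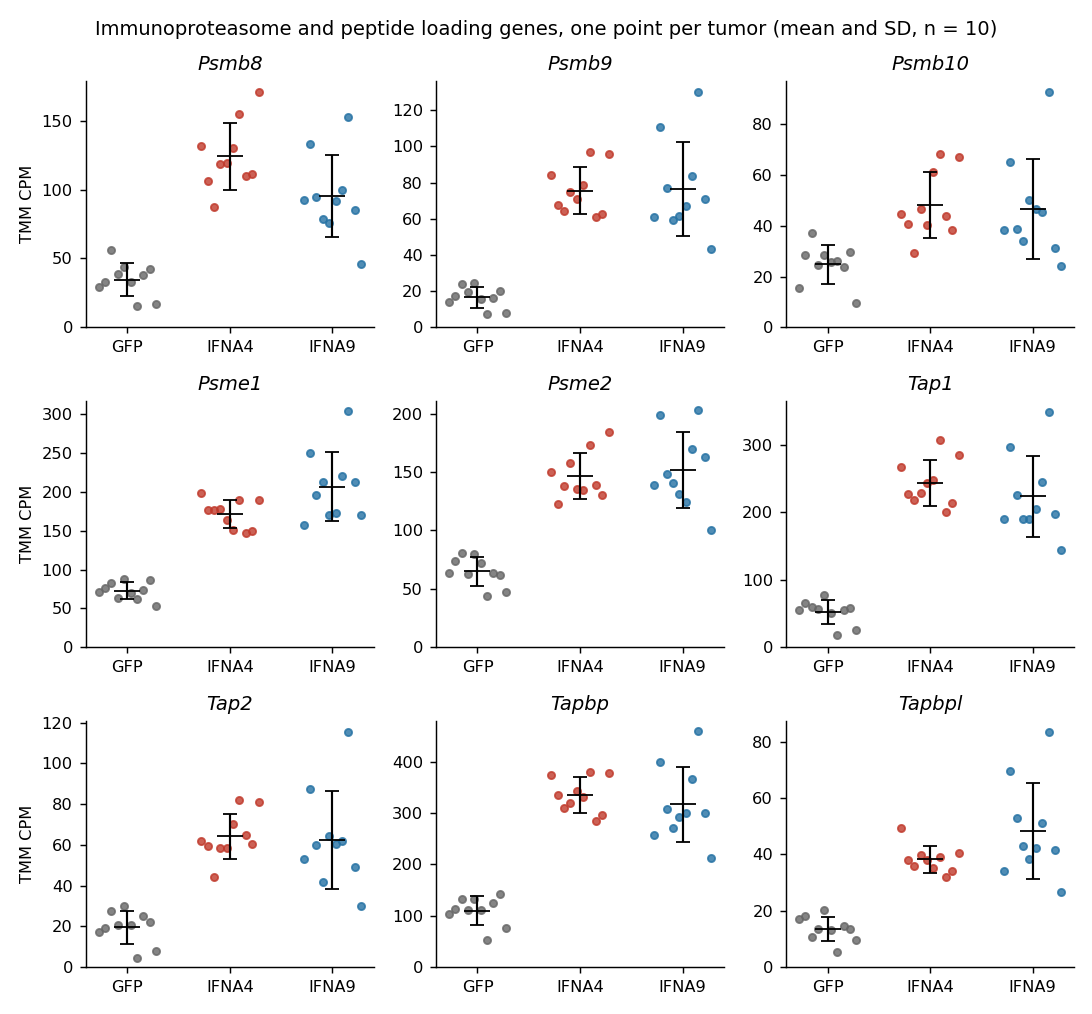
TMM-scaled CPM (y axis, linear, from 0) of each of the 9 genes in every tumor of the 3 types (x axis), with 1 point per tumor in the order of the replicate numbers and black bars for the mean and SD of 10 tumors. The interferon tumors lie above the controls for every gene, with overlap only for Psmb10 and, in B16-IFNA9, Psmb8, and B16-IFNA9 tumors 2 and 8 form the upper edge of their type.

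Both genes of the PA28 activator rose in both types. Psme1 ran from 53.4 over a median of 72.4 to 87.3 CPM in B16-GFP, from 147 over 176 to 199 CPM in B16-IFNA4 and from 157 over 204 to 305 CPM in B16-IFNA9 tumors. Psme2 ran from 44.1 over 63.3 to 80.4 CPM, from 123 over 139 to 184 CPM and from 100.2 over 144 to 203 CPM in the same order. Neither gene had an interferon tumor within the control range. The log2 fold changes over B16-GFP were 1.24 ± 0.11 and 1.51 ± 0.11 for Psme1 and 1.17 ± 0.12 and 1.22 ± 0.12 for Psme2, in B16-IFNA4 and B16-IFNA9 tumors, with adjusted p of 8.2e-10 or less in edgeR's test. Psme2 is uncertain as a single gene: 28.3% of its transcript windows of 50 bases, the read length, also occur in transcripts of Psme2b or Gm7928. Counts assigned to Psme2b were 38.1, 83.0 and 83.3 mean CPM in the 3 types. Whether these are reads of Psme2b itself or of Psme2 cannot be told apart here.

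Both transporter genes rose in both types. Tap1 ran from 17.9 over a median of 55.9 to 77.2 CPM in B16-GFP, from 200.4 over 236 to 307 CPM in B16-IFNA4 and from 145 over 201 to 349 CPM in B16-IFNA9 tumors, with no overlap with the controls. Its log2 fold changes were 2.22 ± 0.18 and 2.10 ± 0.18, with adjusted p = 1.6e-11 and 1.1e-10 in edgeR's test. Its partner Tap2 ran from 4.37 over 20.5 to 29.9 CPM in B16-GFP, from 44.3 over 61.1 to 82.1 CPM in B16-IFNA4 and from 30.2 over 60.0 to 116 CPM in B16-IFNA9 tumors. The lowest B16-IFNA9 tumor was thus just above the highest control, and the low end in B16-GFP was tumor 7. The log2 fold changes of Tap2 were 1.72 ± 0.24 and 1.68 ± 0.24 (adjusted p = 3.1e-07 and 9.9e-07).

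The peptide editors rose together. Tapbp ran from 52.3 over a median of 112 to 143 CPM in B16-GFP, from 285 over 333 to 380.5 CPM in B16-IFNA4 and from 212 over 300.0 to 459 CPM in B16-IFNA9 tumors. Tapbpl ran from 5.44 over 13.4 to 20.2 CPM, from 31.9 over 38.1 to 49.3 CPM and from 26.5 over 42.5 to 83.6 CPM. Both kept all interferon tumors above all controls. The log2 fold changes were 1.61 ± 0.14 and 1.53 ± 0.14 for Tapbp and 1.49 ± 0.18 and 1.83 ± 0.18 for Tapbpl, with adjusted p of 3.4e-08 or less in edgeR's test. Tapbpl lies wholly within the span of Vamp1 on the other strand, and Vamp1, a vesicle fusion protein, went from 14.2 to 30.7 and 31.9 mean CPM. The strand setting of the counting is not given in the sources used here, so reads of Vamp1 and Tapbpl may not be separate. The antisense gene Gm20496 lies across from parts of Psmb8 and Tap2 and had 0.224, 1.74 and 1.57 mean CPM in the 3 types. Another antisense gene, Gm16156, covers all 2710 bases of the Psmb10 span and had 0.0627, 0.128 and 0.0887 mean CPM. Tapbp shares 3422 bases of its span with Zbtb22 on its own strand, and Zbtb22 was 19.2, 18.8 and 15.9 mean CPM.

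All 9 genes were thus called higher in B16-IFNA4 than in B16-GFP tumors and all 9 in B16-IFNA9, with median log2 fold changes of 1.61 and 1.53 against 0.01 and -0.00 over all genes tested. Over all genes tested, 31.3% were called higher and 34.1% lower in B16-IFNA4, and 26.9% higher and 28.9% lower in B16-IFNA9 tumors. Every B16-IFNA4 tumor was above every B16-GFP tumor for 8 of the 9 genes (8.5% of all genes tested), and every B16-IFNA9 tumor for 7 of the 9 (4.44%). Both comparisons use the same 10 control tumors. When libraries were scaled by their totals alone, the 9 genes were still called higher, and the split over all genes changed from 4977 higher and 5435 lower to 5412 and 4763 in B16-IFNA4, and from 4281 and 4595 to 5051 and 3610 in B16-IFNA9. Without B16-GFP tumor 7, all 9 genes were still called in both, with log2 fold changes of 0.98 to 2.14 in B16-IFNA4 and 0.92 to 2.11 in B16-IFNA9.

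Markers of leukocytes moved with these genes. All 5 leukocyte markers listed (Ptprc, Cd52, Laptm5, Coro1a and Cd53) were called higher in both interferon types, and their summed level was 158 to 529 CPM in B16-GFP, 853 to 1761 CPM in B16-IFNA4 and 609.8 to 1181 CPM in B16-IFNA9 tumors. The 4 natural killer cell markers summed to 2.14 to 9.78, 35.3 to 129 and 21.7 to 87.5 CPM, and all 4 were called higher in both types. Of 6 T cell markers, 6 were higher in B16-IFNA4 and 5 in B16-IFNA9 tumors, and of 5 dendritic cell markers 4 were higher in each. The 3 melanocyte markers with a row of 7 listed (Tyr, Tyrp1 and Mitf) were called lower in both types, with sums of 7214 to 22818, 2157 to 3630 and 3367 to 8916 CPM. Of the other lists, 2 of 5 macrophage and monocyte markers, 1 of 3 neutrophil and 1 of 3 fibroblast markers were higher in both types, 2 of 3 endothelial, 2 of 3 neutrophil and all 3 erythroid markers were lower in both, 2 of 3 keratinocyte markers were higher in B16-IFNA4, 1 endothelial marker was higher there, 2 of 3 skeletal muscle markers were lower in B16-IFNA9, and no B cell marker passed the filter. No marker on any list was at 0 in all tumors, and the part of these cells in the rise of the 9 genes was not tested beyond the fit that follows. Pmel, Dct, Mlana and Sox10 were not analysed here.

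With Ptprc log2 CPM added to the fit as a covariate, the log2 fold changes over B16-GFP stayed above 0 for all 9 genes, at 0.19 to 1.12 in B16-IFNA4 and 0.70 to 1.33 in B16-IFNA9 tumors. In that fit 1 of the 9 genes, Psme1, was called higher in B16-IFNA4 (0.70 ± 0.21, adjusted p = 0.046), where 2.42% of all genes were called higher. In B16-IFNA9, 5 were called higher (Psmb9, Psme1, Psme2, Tap1 and Tapbp, adjusted p of 0.031 or less), where 2.59% of all genes were. The smallest estimate was that of Tapbpl in B16-IFNA4, 0.19 ± 0.32. Ptprc differed between B16-GFP and the interferon types without overlap, so this fit sets the type apart from the leukocyte level only through the spread within types. B16-GFP tumor 7 is a large part of that spread, with a Ptprc log2 CPM of 4.30 against a mean of 6.20 in its type. No fit with the covariate was made without tumor 7, so how far the covariate values here and below rest on it was not tested.

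The order of the 9 genes by level per kilobase of exon was different with and without interferon. In B16-GFP tumors Psme2 (36.8 ± 6.96 CPM per kb), Psme1 (32.9 ± 5.00) and Tapbp (30.2 ± 7.63) were highest and did not differ beyond their SD. Psmb10 (14.6 ± 4.49), Psmb8 (10.2 ± 3.62) and Tap1 (9.51 ± 3.23) came next, with Psmb8 and Tap1 inside each other's SD. Tapbpl (5.76 ± 1.83), Tap2 (5.14 ± 2.14) and Psmb9 (4.56 ± 1.59) were lowest and lay inside each other's SD. The same 3 genes led in B16-IFNA4 tumors, with Tapbp at 92.3 ± 9.402, Psme2 at 83.0 ± 11.1 and Psme1 at 77.8 ± 8.33 CPM per kb. Tap1 then stood at 44.5 ± 6.17 CPM per kb, above Psmb8 at 36.7 ± 7.21, with overlapping SDs, and Psmb10 at 28.2 ± 7.65, and the last 3 were Psmb9 (20.7 ± 3.59), Tap2 (16.96 ± 2.98) and Tapbpl (16.2 ± 2.02). B16-IFNA9 tumors had Psme1 first (93.6 ± 20.3 CPM per kb) and Tap2 last (16.5 ± 6.36). In this order Tap1 moved past Psmb8 and Psmb10 in both interferon types, and Psmb9 left the last place. In B16-IFNA9 the SDs of Tap1 (40.8 ± 10.9) and Psmb8 (28.1 ± 8.79) overlapped. The order depends on the annotated exon lengths. In plain CPM, Tap1 (mean 52.1) was already above Psmb8 (34.6) and Psmb10 (24.9) in B16-GFP tumors. The lowest gene there was Tapbpl (13.5), not Psmb9 (16.7).

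None of the 9 genes was called different between B16-IFNA9 and B16-IFNA4 tumors by edgeR's test or by DESeq2, and 2 (Psmb8 and Psme1) had an unadjusted p under 0.05 in edgeR. Over all genes tested, 10.5% were called higher and 7.25% lower in B16-IFNA9. The median log2 difference of the 9 genes was -0.04 and that of all genes tested was -0.01. Psmb8 was lower in B16-IFNA9 by a log2 difference of -0.38 ± 0.19 (95% interval -0.77 to -0.00, adjusted p = 0.16), and 4 of the 10 B16-IFNA9 tumors lay below every B16-IFNA4 tumor. Psme1 was 0.27 ± 0.10 higher (0.06 to 0.48, adjusted p = 0.071), with 5 tumors above every B16-IFNA4 tumor, and Tapbpl was 0.34 ± 0.18 higher (-0.02 to 0.70, adjusted p = 0.19). The other 6 genes had log2 differences of -0.12 to 0.05. Their intervals spanned 0, with the widest from -0.51 to 0.42 for Tap2. With the Ptprc covariate, Psme1 (0.37 ± 0.10, adjusted p = 0.0097) and Tapbpl (0.57 ± 0.15, adjusted p = 0.0074) were called higher in B16-IFNA9, where 10.2% of all genes were called higher.

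**Figure D2:**
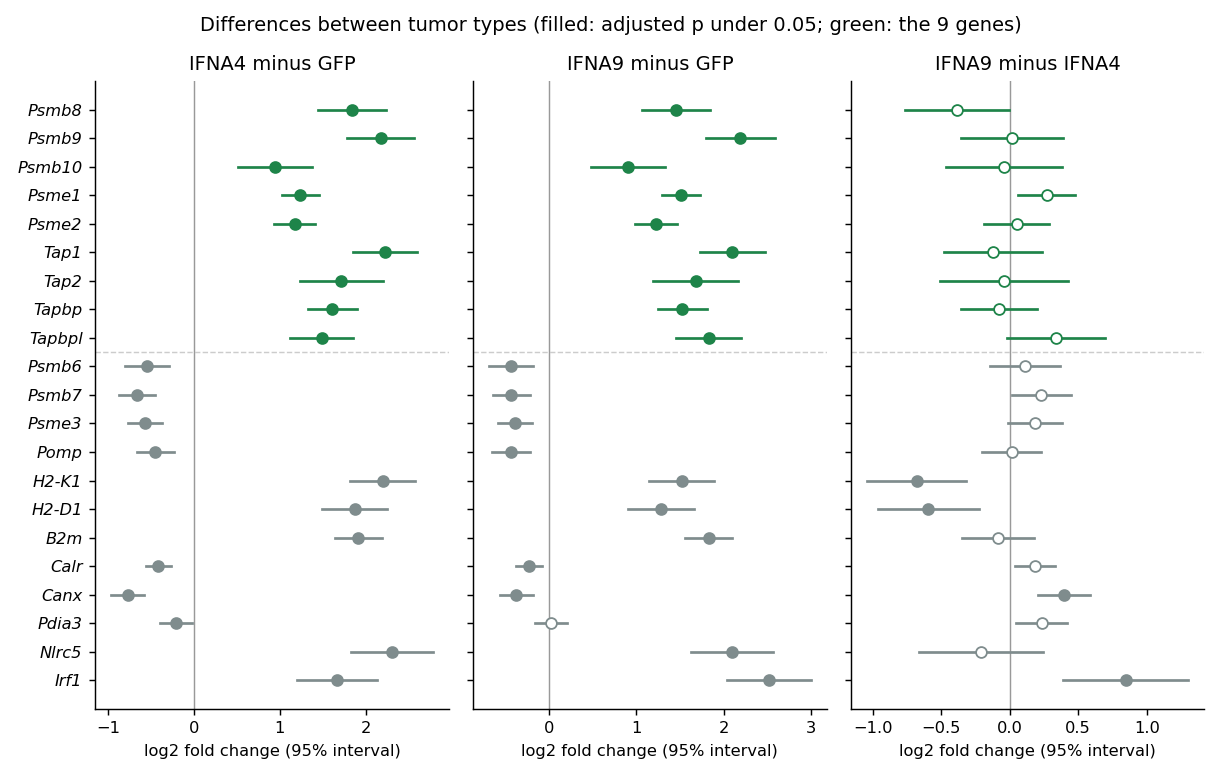
Log2 fold change (x axis) with its 95% interval from edgeR's fit for the 9 genes (green, above the dashed line) and 12 genes around them in the pathway (grey), in each of the 3 comparisons. Points are filled where the adjusted p was under 0.05; the 9 genes are filled and right of 0 in both comparisons with B16-GFP and open between the interferon types, where H2-K1 and H2-D1 lie left of 0 and Irf1 and Canx right of it.

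The constitutive counterparts moved the other way. Psmb6 went from 140 ± 39.0 CPM in B16-GFP to 95.4 ± 12.8 in B16-IFNA4 and 103 ± 16.7 CPM in B16-IFNA9 tumors (log2 fold changes of -0.55 ± 0.12 and -0.43 ± 0.12, adjusted p = 0.00035 and 0.0041 in edgeR's test). Psmb7 went from 134 ± 40.4 to 84.6 ± 6.21 and 99.2 ± 9.62 CPM (-0.67 ± 0.10 and -0.43 ± 0.10, adjusted p = 2.7e-06 and 0.00084). With the Ptprc covariate these 4 values were 0.39 ± 0.21, 0.32 ± 0.18, 0.09 ± 0.18 and 0.18 ± 0.15 and none was called. Psmb5, the counterpart of Psmb8, was not analysed here. Since both subunits of a pair are read from the same library, their ratio per kilobase does not depend on how libraries are scaled.

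Psmb9 over Psmb6 was 0.0644 ± 0.0234 in B16-GFP tumors, 0.407 ± 0.0541 in B16-IFNA4 and 0.386 ± 0.132 in B16-IFNA9 tumors. The ratio ran from 0.0177 over a median of 0.0654 to 0.108 in the controls, from 0.303 over 0.416 to 0.469 in B16-IFNA4 and from 0.211 over 0.373 to 0.594 in B16-IFNA9 tumors, and neither interferon type overlapped the controls. The log2 ratio was 2.77 and 2.62 higher than in B16-GFP, each with p = 1e-05 (two-sided permutation test with 100000 resamples, the smallest p they can give) and adjusted p = 2e-05 over 6 tests. Psmb10 over Psmb7 was 0.389 ± 0.130 in B16-GFP, 1.15 ± 0.325 in B16-IFNA4 and 0.968 ± 0.462 in B16-IFNA9 tumors. In the log2 ratio it was 1.61 higher in B16-IFNA4 (adjusted p = 2e-05 in the permutation test, no overlap) and 1.29 higher in B16-IFNA9 (adjusted p = 0.00024, with overlap). Per kilobase, Psmb10 was near its counterpart in the interferon tumors and Psmb9 was below Psmb6 in all 30 tumors. These levels, unlike the differences between types, depend on the annotated exon lengths (3660 bases for Psmb9, 1872 for Psmb6, 1705 for Psmb10 and 3421 for Psmb7), and in plain counts Psmb9 was above Psmb6 in B16-IFNA9 tumors 2 (1853 against 1596) and 8 (2002 against 1770). Between the interferon types the log2 ratios differed by -0.14 for Psmb9 (permutation p = 0.42) and -0.32 for Psmb10 (permutation p = 0.20, adjusted p = 0.24). Without B16-GFP tumor 7, which had the lowest Psmb9 over Psmb6, the differences from B16-GFP were 2.57 and 2.43.

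**Figure D3:**
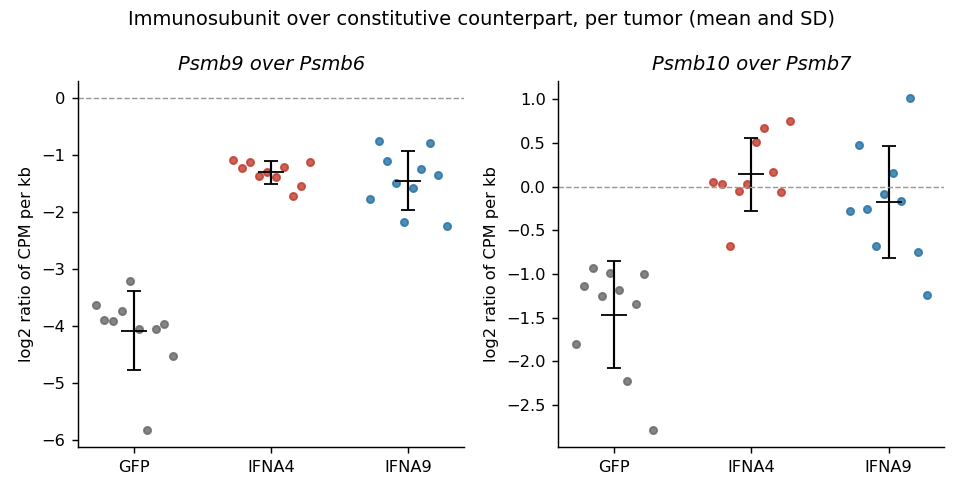
Log2 ratio of CPM per kb (y axis) of Psmb9 over Psmb6 and of Psmb10 over Psmb7 in every tumor of the 3 types (x axis), with 1 point per tumor, black bars for the mean and SD of 10 tumors, and a dashed line where both subunits are equal. For Psmb9 all tumors lie below the line and B16-GFP lies lowest without overlap, and for Psmb10 the interferon tumors lie around the line.

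Within a type the 9 genes tended to move as a block. B16-IFNA9 tumor 8 was the highest of its type for all 9 genes and tumor 2 was among the top 2 for all 9, while tumor 10 was the lowest for 8 of them. Relative to the mean of its type, tumor 8 was higher by 0.45 (Psme2) to 1.09 (Psmb10) in log2 CPM, and tumor 10 was between -0.99 (Psmb8) and -0.25 (Psme1). In B16-GFP, tumor 7 was the lowest for 7 of the 9 genes and tumor 10 was among the bottom 2 for all 9. Tumor 7 was at -1.94 for Tap2 and -1.42 for Tap1, yet at 0.16 for Psmb10. B16-IFNA4 tumors were more even, with an SD of log2 CPM of 0.15 to 0.39 over the 9 genes against 0.23 to 0.87 in B16-GFP and 0.29 to 0.55 in B16-IFNA9, and tumors 7 and 10 were each among the top 2 for 8 genes.

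**Figure D4:**
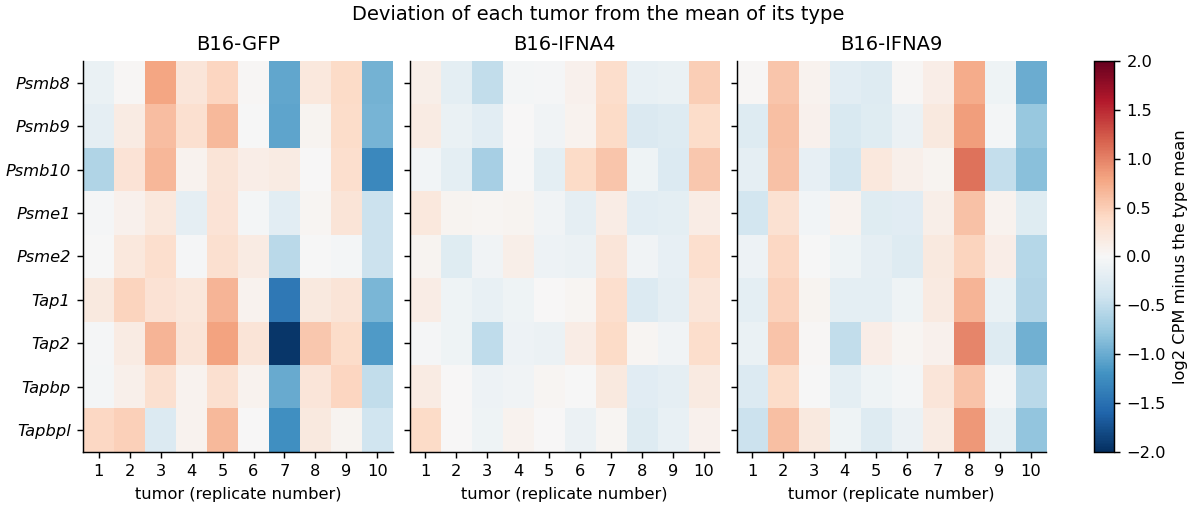
Deviation of each tumor's log2 CPM from the mean of its type (color, blue lower and red higher) for the 9 genes (rows) and the 10 tumors of each type (columns, by replicate number). Whole columns share a color: B16-IFNA9 tumors 2 and 8 are higher and tumor 10 lower, and in B16-GFP tumors 7 and 10 are lower, except for Psmb10 in tumor 7.

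Genes that lie side by side were compared within types. High values were not limited to them, since Tapbp, chosen here after its values were seen, had r of 0.93, 0.91 and 0.98 with Psmb9 and of 0.94, 0.95 and 0.98 with Tap1 in B16-GFP, B16-IFNA4 and B16-IFNA9 tumors. Psmb9 and Tap1, which share the interval printed above, had Pearson r of 0.93 in B16-GFP, 0.97 in B16-IFNA4 and 0.99 in B16-IFNA9 tumors over 10 tumors each (Spearman rho 0.92, 0.99 and 0.98, permutation p of 0.00054 or less for r and 0.00065 or less for rho). Psmb8 and Tap2 had r of 0.95, 0.92 and 0.93 (rho 0.95, 0.71 and 0.71, permutation p of 0.00061 or less for r and 0.027 or less for rho), and Psme1 and Psme2 had r of 0.78, 0.61 and 0.85 (rho 0.67, 0.61 and 0.88, permutation p for rho of 0.039, 0.067 and 0.0016). Of these 9 relations, 8 passed an adjusted p of 0.05 for r over a family of 36, all but Psme1 with Psme2 in B16-IFNA4 (permutation p = 0.060, adjusted p = 0.14), and 5 passed for rho. Without the 2 tumors farthest from the median of the first gene, Psmb9 and Tap1 had r of 0.65 in B16-GFP (permutation p = 0.073), 0.93 and 0.98 in the other types. Psmb8 and Tap2 then had r of 0.83, 0.81 and 0.76, and Psme1 and Psme2 had r of 0.61, 0.58 and 0.90. Over all 3 pairs 0, 1 and 2 relations then passed in B16-GFP, B16-IFNA4 and B16-IFNA9. Without B16-GFP tumor 7 alone, r in B16-GFP was 0.90 for Psmb9 and Tap1 and 0.95 for Psmb8 and Tap2, both called, and 0.79 for Psme1 and Psme2, which was not.

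Over all 30 tumors, after the mean of each type was subtracted, the genes nearest to the 9 were often each other, as a description across tumors that share depth and cell makeup. Psmb8 was nearest to Psmb9 (r = 0.96), then to H2-DMa, a class II peptide loading chain, and Coro1a, a leukocyte actin regulator. Psmb9 was nearest to Psmb8, Tapbp and Tap1, and Tapbp to Tap1, Psmb9 and Trafd1. Tap1 was nearest to Trafd1 (0.96), an interferon-induced regulator of innate signaling, then to Tapbp and Tap2. The nearest genes of Tap2 were H2-T23 (0.97), a nonclassical class I gene, H2-T-ps and H2-DMb2. Psme2 was nearest to its copy Psme2b (0.96), with which it may share reads, then to Psmb9 and Psmb8.

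For Psme1, Tapbpl and Psmb10, as for Tap2, the 3 nearest genes were all outside the 9. Psme1 was nearest to Il18bp (r = 0.87), which encodes the binding protein of interleukin-18, and to Apol10b and Ccrl2. Tapbpl was nearest to Rnf19b (0.93) and to the guanylate-binding protein genes Gbp10 and Gbp5 (0.92 each). Psmb10 was nearest to Fbxo6 (0.90), Gpsm3 and Abhd16a. It was also the least like the other 8 over all tumors, with a median r of 0.64 to them. Its highest r was 0.77 (Psmb8) and its lowest 0.41 (Tapbpl), where the other genes had medians of 0.72 to 0.91. In B16-GFP tumor 7, Psmb10 deviated from the mean of its type by 0.16 in log2 CPM. The other 8 genes deviated there by -1.94 (Tap2) to -0.20 (Psme1). These r values were not computed without tumor 7, so how far the low values of Psmb10 rest on it was not tested.

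Within types no Pearson relation of Ptprc with the 9 genes was called. Pearson r of Ptprc with the 9 genes in log2 CPM was -0.26 to 0.74 in B16-GFP, -0.29 to 0.68 in B16-IFNA4 and 0.21 to 0.67 in B16-IFNA9 tumors. None of these 27 relations passed an adjusted p of 0.05 for r by permutation, and 4 had an unadjusted p under 0.05 (Tapbpl in B16-GFP and B16-IFNA4, and Psme1 in B16-IFNA4 and B16-IFNA9). By Spearman rho 1 passed, Tapbpl in B16-IFNA9 (rho = 0.85, permutation p = 0.0030, adjusted p = 0.018). Without B16-GFP tumor 7, r in B16-GFP was -0.37 to 0.13. Without the 2 tumors farthest from the median of Ptprc, r was -0.35 to 0.68, -0.47 to 0.24 and 0.34 to 0.67 in the 3 types.

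**Figure D5:**
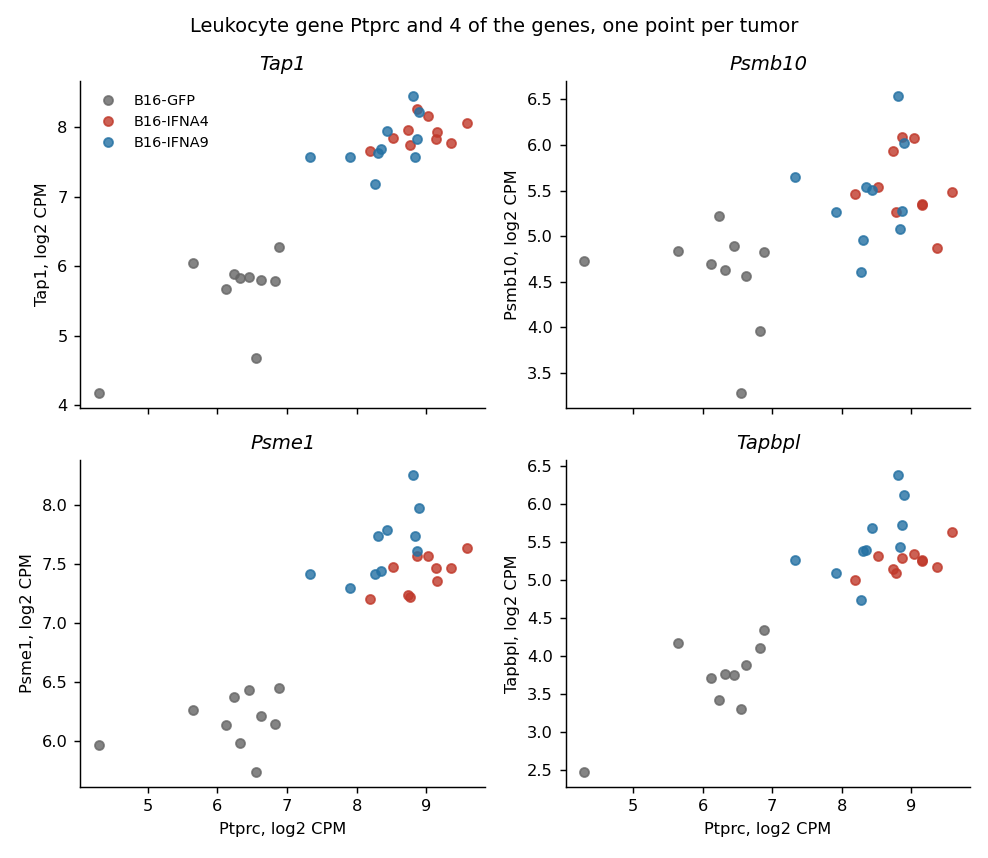
Log2 CPM of Tap1, Psmb10, Psme1 and Tapbpl (y axes) against log2 CPM of the leukocyte gene Ptprc (x axis), with 1 point per tumor colored by type. The interferon tumors lie to the right of the controls in every panel and above them for Tap1, Psme1 and Tapbpl, while for Psmb10 the types overlap in height. The B16-GFP tumor at the far left is tumor 7, which is the lowest for Tap1 and Tapbpl but not for Psmb10.

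The class I chains that these genes serve were called higher in both types, 3 of 3, and the heavy chains differed between the interferons. H2-K1 was 481 ± 172 CPM in B16-GFP, 2208 ± 292 in B16-IFNA4 and 1378 ± 280.4 CPM in B16-IFNA9 tumors, and H2-D1 was 484 ± 176, 1777 ± 257 and 1178 ± 258 CPM. Both heavy chains were called lower in B16-IFNA9 than in B16-IFNA4 (log2 differences of -0.68 ± 0.18, adjusted p = 0.0076, and -0.59 ± 0.18, adjusted p = 0.021, in edgeR's test), with 8 and 7 of 10 tumors below every B16-IFNA4 tumor. With the Ptprc covariate these differences were -0.44 ± 0.16 (adjusted p = 0.056) and -0.39 ± 0.18 (adjusted p = 0.13). B2m, the light chain, was 1553 ± 366, 5861 ± 1121 and 5527 ± 795 CPM, with a difference between the interferons of -0.08 ± 0.13 (adjusted p = 0.71). With that covariate only B2m of the 3 was called higher over B16-GFP (0.83 and 0.97), where H2-K1 was at 1.04 ± 0.34 (adjusted p = 0.076) and 0.59 ± 0.29 (adjusted p = 0.29). Heavy chains have close relatives in the genome, and reads shared with them may be split.

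The chaperones that fold class I molecules did not rise. Of Calr, Canx, Pdia3 and Uggt1, all 4 were called lower in B16-IFNA4 and 2 (Calr and Canx) in B16-IFNA9 tumors. Over all genes tested, 34.1% and 28.9% were called lower in these comparisons, and 2 of 4 is not far from the latter share. Pdia3 was no longer called in B16-IFNA4 when libraries were scaled by totals or DESeq2's size factors or without B16-GFP tumor 7 (-0.20 to -0.13), nor Calr in B16-IFNA9 with library totals (-0.12). Once Ptprc was a covariate, 0 of the 4 were called lower in either type, with Canx at -0.68 ± 0.21 (adjusted p = 0.056) and -0.30 ± 0.18 (adjusted p = 0.41). Canx, the calnexin gene, fell the most, from 1033 mean CPM to 605 and 796 CPM (log2 fold changes of -0.77 ± 0.09 and -0.38 ± 0.09), and it was 0.40 ± 0.09 higher in B16-IFNA9 than in B16-IFNA4 (adjusted p = 0.0031 in edgeR's test). Of 5 peptidases tested that trim or destroy peptides, 1 was called higher in B16-IFNA4 (Npepps, 0.29 ± 0.08) and 4 lower (Lap3, Tpp2, Thop1 and Blmh). In B16-IFNA9 Thop1 (-0.83 ± 0.18) and Blmh (-0.28 ± 0.07) were lower, and these 2 of 5 lie near the share of 28.9% over all genes. In B16-IFNA4 the shares over all genes were 31.3% higher and 34.1% lower. The fall of Tpp2 in B16-IFNA4 was lost with library totals (-0.14) and without B16-GFP tumor 7 (-0.20), and that of Blmh in B16-IFNA9 with library totals (-0.19). In B16-IFNA9, Npepps was called higher with DESeq2's size factors (0.19) and both Npepps (0.27) and Lap3 (0.41) with library totals. Adding Ptprc as a covariate left 0 of the 5 called in either comparison with B16-GFP. Lap3, leucine aminopeptidase, was 0.78 ± 0.16 higher in B16-IFNA9 than in B16-IFNA4 tumors without overlap (adjusted p = 0.00065). Erap1 was not analysed here.

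Other parts of the proteasome did not follow the 9 genes upward. Psme3, which forms the nuclear activator PA28γ, was lower in both types (-0.57 ± 0.10 and -0.39 ± 0.10), as was Pomp, the assembly factor (-0.45 ± 0.11 and -0.44 ± 0.11). The inhibitor Psmf1 was lower in B16-IFNA4 only (-0.21 ± 0.09, against -0.15 ± 0.09 in B16-IFNA9, and the difference of 0.06 ± 0.09 between them was not called, nor was the fall in B16-IFNA4 called with library totals, at -0.12, or without B16-GFP tumor 7, at -0.14), and Psme4, the activator PA200, was not called in either comparison (0.07 ± 0.08 and 0.09 ± 0.08, although 0.20 was called in B16-IFNA9 with library totals). In the fit with Ptprc 0 of these 4 genes were called in either type, and Psme3 was at -0.036 ± 0.19 and 0.046 ± 0.16 and Pomp at 0.37 ± 0.17 and 0.24 ± 0.14. Over the 26 pathway genes tested of 31 listed beside the 9, 10 were called higher and 14 lower in B16-IFNA4, 9 higher and 9 lower in B16-IFNA9, and 4 higher and 2 lower between B16-IFNA9 and B16-IFNA4. Over all genes tested the shares called higher and lower were 31.3% and 34.1%, 26.9% and 28.9%, and 10.5% and 7.25% in these comparisons, and the pathway counts in B16-IFNA9 and between the interferons lie near them. Under scaling by library totals the pathway counts were 10 and 11, 12 and 7, and 7 and 2.

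Among the transcription factors, Nlrc5, Irf1, Irf2, Irf9 and Rfx5 rose in both types and Rfxap fell. Of these 6, with Ptprc as a covariate, Irf9 was still called in both types (0.76 ± 0.18 and 0.68 ± 0.15) and Rfx5 in B16-IFNA9 (0.59 ± 0.16), and the others were not, with Nlrc5 at 0.33 ± 0.38 and 0.49 ± 0.32, Irf1 at 0.19 ± 0.46 and 1.28 ± 0.40 and Rfxap at -0.23 ± 0.16 and -0.12 ± 0.13. Nlrc5, the class I coactivator, went from 57.4 ± 22.4 CPM to 285 ± 29.5 and 246 ± 65.1 CPM, and it was not called different between the interferons (-0.21 ± 0.22, adjusted p = 0.56 in edgeR's test). Irf1 did differ: it went from 45.7 ± 17.8 CPM to 146 ± 23.5 in B16-IFNA4 and 262 ± 122 CPM in B16-IFNA9 tumors, a difference of 0.85 ± 0.22 (adjusted p = 0.0080 in edgeR's test), and 7 of 10 B16-IFNA9 tumors were above every B16-IFNA4 tumor. Its highest B16-IFNA9 tumor was number 8 (487 CPM), which was also the highest for all 9 genes. Rfx5, a subunit of the factor that binds class I and class II promoters, was 0.27 ± 0.09 higher in B16-IFNA9 (adjusted p = 0.039 in edgeR's test, 0.050 with DESeq2's size factors and 0.070 with library totals, neither of them called). Irf9 and Irf2 rose over B16-GFP by 1.71 and 1.44 in B16-IFNA4 and by 1.43 and 1.199 in B16-IFNA9.

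A list of type I interferon-stimulated genes is set beside the 9. All 13 tested (Ifit1, Mx1, Usp18 and others) were called higher in both types, with median log2 fold changes of 3.45 in B16-IFNA4 and 2.79 in B16-IFNA9 against 1.61 and 1.53 for the 9 genes. Between the interferon types 9 of the 13 were called lower in B16-IFNA9, with a median of -0.74, and 0 of the 9 immunoproteasome and loading genes were. Over all genes tested 7.25% were called lower there, and 0 of 9 lies near that share. With the Ptprc covariate all 13 were called higher in both types, where 1 and 5 of the 9 genes were, and 6 of the 13 were called lower in B16-IFNA9 than in B16-IFNA4. Mx1, for example, had 20.2, 385 and 166 mean CPM in the 3 types, and Tap1 had 52.1, 244 and 223 CPM. The difference between the lists was not tested.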

How the data were processed

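Total RNA of 30 whole tumors was sequenced from a strand-marking mRNA kit, 50 bases from 1 end. Per the submitters' processing notes, reads were checked with FastQC 0.11.3 and aligned with HISAT2 2.0.4 to mm10, whereas the study's methods name mm11, and SummerizeOverlaps (so spelled in those methods) assigned them to genes. The authors deposited raw counts, not normalized. The annotation release, overlap mode, strand setting and treatment of multimapping reads are not given in the sources used here, so genes that share sequence or overlap are uncertain. Groups were taken from the sample titles. Each title names a biological replicate.

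Of 39676 gene identifiers, 39495 were matched without their version to GENCODE M21, which supplied symbols, positions and exon lengths. The total count was 14598517 to 19788383 per tumor, and precision is limited by the spread between tumors (biological coefficient of variation 0.281) more than by counting.

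The fit used edgeR 4.0.16 (R 4.3.3): TMM scaling, a minimum mean of 10 counts, 1 quasi-likelihood model of all 30 tumors on tumor type, and calls at an adjusted p under 0.05 (Benjamini-Hochberg over 15926 genes). The standard error was derived from the log2 fold change and its F statistic. Log2 CPM took a prior count of 2. Ratios were tested by permutation, for 2 subunit pairs rather than 3 because Psmb5 was not analysed here, and correlations within types over a family of 36 relations. Alternatives were DESeq2 1.42.0 (size factors and test), library totals, other filters, fits of 2 types, a replicate block, a Ptprc covariate and leaving out each tumor. The fit was tested on simulated data. Plots used Python 3.11.15 and matplotlib 3.10.9.

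The 9 genes, the pathway and marker lists and the tests were chosen with earlier results of these data known. Named are the 9 genes, their counterparts, the listed pathway genes, Ptprc and, for each of the 9, the 3 genes with the highest residual correlation. Ifna4 and Ifna9, Psme2b, Vamp1, Zbtb22, Gm16156 and single markers were added after their values were seen. Of the listed pathway genes, 1 is counted but not reported here.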

Additional observations from a re-analysis of the deposited data

Results flagged for a closer look

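The log2 ratio of Psmb9 over Psmb6 was -5.82 in B16-GFP tumor 7, against -4.52 to -3.21 in the other 9 B16-GFP tumors, a gap to the nearest tumor of 0.5 of the whole range, which is past Dixon's 95% limit for 10 samples. The same tumor had the lowest Ptprc level and the lowest scaling factor of the 30, and their part in the value was not tested. It was the only 1 of 33 groups of values examined that passed this limit, where chance would pass about 1.65.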

How the results depend on the processing

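The counts of 9 called genes over B16-GFP were the same under DESeq2's size factors, library totals, DESeq2's test, filterByExpr, no filter, fits of only the 2 types compared, a replicate block, and without each of the 30 tumors in turn. With the Ptprc covariate they were 1 in B16-IFNA4 and 5 in B16-IFNA9, and the pathway genes called went from 24 to 3 and from 18 to 4. Between B16-IFNA9 and B16-IFNA4, 0 of the 9 genes were called, against 1 with filterByExpr (Psme1, 0.29, adjusted p = 0.043 in edgeR's test), 2 with the Ptprc covariate, and 0 to 1 without single tumors. The adjusted p of Psme1 was 0.0097 to 0.14 over the 8 alternatives that keep all tumors, and it was called in 5 of the 30 fits without 1 tumor (without B16-GFP tumors 1 or 2, or B16-IFNA9 tumors 1, 5 or 6), with a lowest adjusted p of 0.023. Pathway genes called in that comparison were 6, against 10 in a fit of only the 2 types compared and 5 to 10 without single tumors, with 10 without B16-IFNA9 tumors 1, 5 or 6. The log2 differences near 0 between B16-IFNA9 and B16-IFNA4 changed sign, none of them called: to 0.091 (Tap1), 0.16 (Tap2) and 0.10 (Tapbp) with the Ptprc covariate, and without single tumors Psmb9 ranged from -0.10 to 0.084, Psmb10 from -0.21 to 0.032, Psme2 from -0.0049 to 0.10 and Tap2 from -0.18 to 0.040. The cause of these changes was not tested. Without the 2 tumors farthest from the median, the relations called within a type went from 3 to 0 in B16-GFP and from 2 to 1 in B16-IFNA4.

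No general pairing of the tumors by replicate number was seen. The correlation of same-numbered tumors' deviations was -0.27 to 0.30 over 30 pairs, with a median of -0.05 and 4 pairs above 0.1. Low values of this kind cannot exclude a pairing, and the titles give only the numbers. With the replicate number as a block, 9, 9 and 0 of the 9 genes and 22, 20 and 5 pathway genes were called, and the Psmb9 difference between B16-IFNA9 and B16-IFNA4 was -0.049. Tap2 in B16-GFP tumor 7 had the fewest counts of the 9 genes, 49.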
